A study of Rattus norvegicus with 6 samples.

Results

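The genes followed here drive entry into S phase and copy the DNA: 45 listed genes of DNA replication and the G1/S switch, measured in rat aorta. Their rows on the array were found by name, taking those whose annotation gives exactly 1 gene symbol equal to a listed name. Of several rows, the row with the highest mean over all arrays was kept. The list itself was chosen with earlier results of these data known. Of the 45 genes 41 were measured, among 14324 genes measured in all, and E2f2, Mcm3, Mcm4 and Pole2 were not analysed here. The samples of interest were aortic rings embedded in collagen gel and cultured for 1 day in serum-free EBM medium (day 1 cultures), and they were set against rings taken fresh from the vessel (day 0 rings). Both groups came from male Fisher 344 rats aged 1 to 2 months and held 3 biological replicates, each of them RNA pooled from 4 to 6 rings or cultures and read on its own Affymetrix whole-transcript array. The labels name no treatment other than the culture itself. The ring culture holds the whole vessel wall, so a value is an average over smooth muscle, endothelium, adventitia and any resident blood cells.

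A resting cell prepares for division by raising the E2F transcription factors, which switch on the genes of DNA synthesis. In G1, the origin recognition complex with Cdc6 and Cdt1 loads the MCM helicase onto replication origins, a step called licensing. At the start of S phase, Cdc45 and the GINS complex turn the loaded helicase on, and polymerases, the Pcna sliding clamp and the clamp loader copy both strands while ribonucleotide reductase and thymidylate enzymes supply nucleotides. In the healthy adult aorta smooth muscle cells divide rarely, and division returns after injury and in culture.

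After 1 day of culture, transcripts of this machinery were higher almost throughout. By limma with Benjamini-Hochberg adjustment over all 14324 genes, 40 of the 41 measured members rose past an adjusted p of 0.05 and 0 fell. Over all genes tested 27.6% rose, 20.7% fell and 48.3% passed in either direction. A rise of at least 2-fold was reached by 19 members, and a fall of that size by 0, against a background of 4.13% of all genes for such rises and 4.11% for such falls. In 40 members every day 1 array was above every day 0 array, which 31.4% of all genes shared, while 25.5% of all genes had every day 1 array below. The median log2 change (day 1 minus day 0) was 0.95 over the members, a 1.93-fold rise, and -0.01 over all genes tested. The member not past the threshold was Gins2. Below, a change is the day 1 minus day 0 difference on the log2 scale, ± its standard error (n = 3 per group), unless SD is written. Levels of single arrays are log2 values and are not compared between genes. Array medians were between 5.87 and 5.95.

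**Figure D1:**
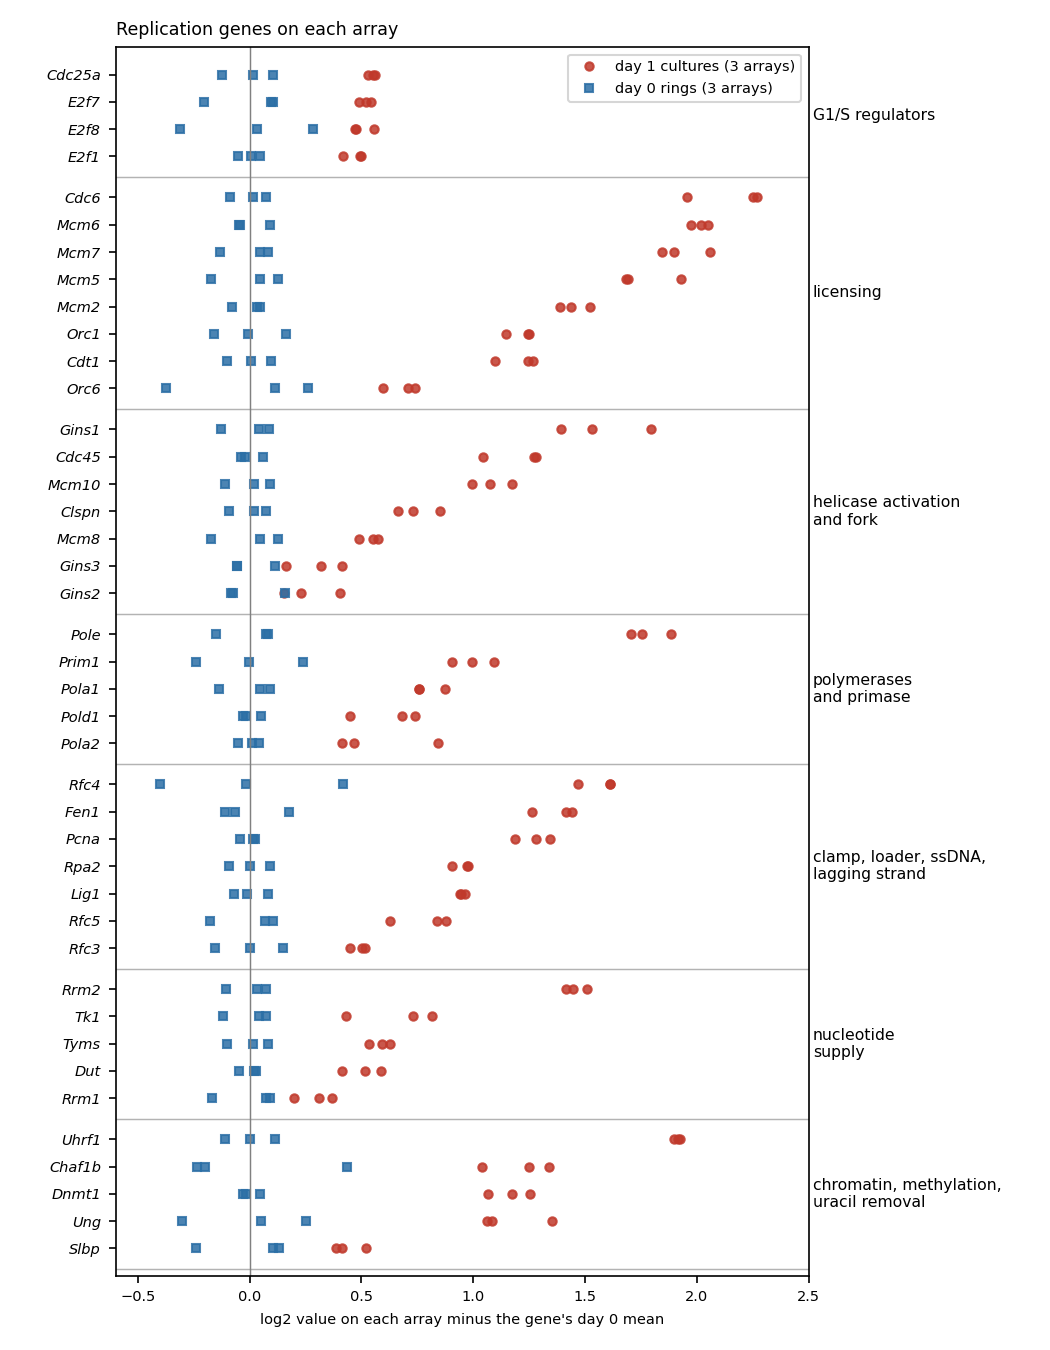
Each row is a measured gene, grouped by role, and the x axis gives the log2 value on each array minus that gene's day 0 mean. Circles are the 3 day 1 cultures and squares the 3 day 0 rings; the circles lie right of the squares in 40 of 41 genes, with Gins2 the exception, and reach furthest right among the licensing genes.

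Markers of some cell types of the wall moved at the same time, while 27.6% of all genes rose and 20.7% fell. Smooth muscle and adipocyte markers only fell where called, and every other type had calls in both directions. In these pooled tissue samples, fewer cells of a type and less RNA per cell cannot be told apart. All 9 smooth muscle markers fell. The calponin gene Cnn1 had 6.89, 6.94 and 6.75 in day 1 cultures, against 12.56, 12.59 and 12.61 in day 0 rings, and the 9 markers' summed linear level was 3269 to 3702 in day 1 cultures, against 38960 to 40620 in day 0 rings. Of 11 macrophage markers 5 rose and 3 fell, and the sum was 4284 to 4790 in day 1 cultures, against 3133 to 3271 in day 0 rings. Among them the bright Cd14 was at 1.61 ± 0.07 and Lyve1 at -2.05 ± 0.08. Of 7 endothelial markers 4 rose and 2 fell, with sums of 2068 to 2195 in day 1 cultures and 2058 to 2352 in day 0 rings, and Pecam1 and Vwf were not analysed here. Of 9 lymphocyte markers 2 were called higher and 1 lower, with low sums of 295 to 315 in day 1 cultures and 239 to 273 in day 0 rings. Of 7 fibroblast markers 3 were called higher and 4 lower, with sums of 21270 to 22820 in day 1 cultures and 19610 to 21320 in day 0 rings. Adipocyte markers fell in 6 of 7 cases, to 330 to 357 in day 1 cultures against 824 to 982 in day 0 rings. A linear sum is weighted to its brightest genes and need not follow the rest of a list. The median log2 change was 0.08 in macrophage, 0.29 in endothelial and -0.07 in lymphocyte markers. It was -0.86 in fibroblast, -0.83 in adipocyte and -4.05 in smooth muscle markers. The lowest value of any row on these arrays was 1.32, so a value above 0 does not show that a marker was expressed. The part of these shifts in the replication genes was not tested.

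Promoter sequences of some members are shown first, because the E2F site is the textbook link between these genes. Windows from 250 bases before to 50 bases after each RefSeq start site (rat build GRCr8) were found for 36 of the 41 measured members; E2f1, E2f8, Orc1, Cdc6 and Rrm2 are named only. They were searched on both strands for the E2F letters TTTCCCGC, TTTGGCGC, TTTCGCGC and TTTGCCGC and for CCAAT, the letters bound by NF-Y; matches to the E2F letters on opposite strands can overlap, and a gene with several windows counts once. In the lines below capitals mark the E2F and CCAAT letters of either strand, read 5′ to 3′ along the gene's strand, and all stretches lie upstream of the start site.
Mcm2 (chr4:122918095-122918154, minus strand): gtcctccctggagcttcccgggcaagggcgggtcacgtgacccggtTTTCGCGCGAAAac
Mcm5 (chr19:13488593-13488692, plus strand): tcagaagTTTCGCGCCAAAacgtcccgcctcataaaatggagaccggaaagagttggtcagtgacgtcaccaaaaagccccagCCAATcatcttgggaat
Mcm6 (chr13:42404383-42404502, minus strand): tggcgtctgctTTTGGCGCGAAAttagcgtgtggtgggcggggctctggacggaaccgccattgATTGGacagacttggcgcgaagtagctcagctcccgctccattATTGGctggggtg
Mcm7 (chr12:22163209-22163328, minus strand): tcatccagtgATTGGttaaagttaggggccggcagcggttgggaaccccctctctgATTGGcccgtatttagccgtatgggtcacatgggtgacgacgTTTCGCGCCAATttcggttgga
Gins1 (chr3:160184860-160184919, plus strand): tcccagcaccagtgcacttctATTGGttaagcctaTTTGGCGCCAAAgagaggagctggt
Gins3 (chr19:9434680-9434739, minus strand): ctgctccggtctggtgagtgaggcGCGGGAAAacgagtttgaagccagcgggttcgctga
Tyms (chr9:120776084-120776143, minus strand): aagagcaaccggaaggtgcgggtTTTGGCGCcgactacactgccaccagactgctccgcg
Pola1 (chrX:62342416-62342545, minus strand): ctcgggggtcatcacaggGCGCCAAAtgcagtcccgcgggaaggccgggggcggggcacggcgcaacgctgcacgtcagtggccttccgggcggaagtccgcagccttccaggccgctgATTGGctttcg

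The E2F letters stood in at least 1 window of 20 of the 36 members (55.6%) and of 377 of 11825 measured genes with a window (3.19%). CCAAT stood in 24 of the 36 (66.7%) and in 4603 of the 11825 (38.9%). Among the licensing genes 5 of 6 with a window held E2F letters, in polymerases and primase 2 of 5, and in nucleotide supply 1 of 4. The median log2 change was 1.06 in the 20 members with a match, which ranged between 0.30 and 2.01, and 0.73 in the 16 without one, which ranged between 0.26 and 1.56. The ranges overlapped over most of their length, and matches stood in genes of large change (Mcm6, Mcm7 and Gins1) as in Gins3, whose change was among the smallest. A match is a run of letters and not a measured binding site, and genes without these letters in the window may hold others.

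The regulators of the G1/S switch moved by similar amounts. E2f1, an activating E2F factor, stood at 7.18, 7.10 and 7.17 on the day 1 arrays, against 6.68, 6.73 and 6.63 in day 0 rings. Its log2 change was 0.47 ± 0.06 (adjusted p = 0.000361 by limma). Every day 1 array of E2f1 was above every day 0 array, by a gap of 0.37, although the rise was only 1.39-fold. E2f7, an atypical factor that represses E2F targets, was at 0.52 ± 0.09 (adjusted p = 0.00203). E2f8, the other atypical factor, had 6.38, 6.38 and 6.46 in day 1 cultures, against 6.19, 5.59 and 5.94 in day 0 rings. The day 0 spread of E2f8 (SD 0.30, n = 3) was wide beside its change of 0.50 ± 0.14 (adjusted p = 0.0170), and without day 1 replicate 3 the adjusted p was 0.0560. Cdc25a, the phosphatase that activates Cdk2, was at 0.55 ± 0.07. The 4 measured regulators all rose and lay between 0.47 and 0.55, with a median of 0.51, and 0 of them rose 2-fold.

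Among the 7 roles, the listed licensing genes had the highest median change, 1.61, a 3.05-fold rise. All 8 measured rose, 7 of these by 2-fold or more. Orc2, Orc3, Orc4 and Orc5 belong to the same complex as Orc1 and Orc6 but were not listed. Their changes were 0.85, 0.16, 0.17 and 0.37, and the role median leaves them out. Cdc6, the loader that brings the helicase to the origin, stood at 7.996, 7.97 and 7.68 in day 1 cultures, against 5.74, 5.80 and 5.64 in day 0 rings. The lowest day 1 array was above the highest day 0 array by 1.88, and the change of 2.16 ± 0.10 (4.47-fold, adjusted p = 1.17e-06 by limma) was the largest of the 41 members and higher than that of 99.4% of all genes. Of the helicase subunits, Mcm6 had 9.21, 9.25 and 9.28, against 7.32, 7.19 and 7.19 in day 0 rings. Mcm7 had 9.80, 9.58 and 9.64 in day 1 cultures, against 7.83, 7.79 and 7.61 in day 0 rings. Neither gene's groups came near each other, and the changes were 2.01 ± 0.06 (4.04-fold) for Mcm6 and 1.93 ± 0.09 (3.82-fold) for Mcm7. Mcm5 was at 1.77 ± 0.10 and Mcm2 at 1.45 ± 0.07, whose 95% interval (1.29 to 1.60) lay below those of Mcm6 (1.86 to 2.17) and Mcm7 (1.73 to 2.13), while the intervals of Mcm5, Mcm6 and Mcm7 overlapped.

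Cdt1, Orc1 and Orc6, which act with Cdc6 in loading the helicase, had smaller changes than any of the 4 MCM subunits. Cdt1, which carries the helicase to the origin, was at 1.20 ± 0.08. Orc1, the origin recognition subunit whose level varies with the cell cycle, was at 1.21 ± 0.09, and Orc6, another subunit, at 0.68 ± 0.15. Orc6 had 6.99, 6.96 and 6.85 in day 1 cultures, against 6.52, 5.88 and 6.37 in day 0 rings, so that its groups parted by a gap of 0.33 with a day 0 SD of 0.33 (n = 3).

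Among factors that switch on and accompany the helicase, 6 of 7 rose and 3 did so at least 2-fold, with a median of 0.75. Gins1 stood at 6.64, 6.38 and 6.24 in day 1 cultures, against 4.93, 4.72 and 4.89 in day 0 rings. Its change of 1.57 ± 0.11 (2.97-fold) had no overlap between groups. Gins2, a subunit of the same complex, had 6.62, 6.44 and 6.37, against 6.37, 6.14 and 6.13 in day 0 rings. Its groups met, and the change of 0.26 ± 0.09 had an adjusted p of 0.0519 by limma. Gins3 was at 0.30 ± 0.09 (adjusted p = 0.0217), with 6.41, 6.25 and 6.50 in day 1 cultures and 6.20, 6.03 and 6.03 in day 0 rings. The 95% interval of Gins1 (1.31 to 1.83) lay above those of Gins2 (0.04 to 0.48) and Gins3 (0.10 to 0.49). The calls of these small changes depended on the processing and on single arrays. With all arrays kept, Gins2 passed with median centring (adjusted p = 0.0291), with the intensity trend and robust prior (adjusted p = 0.0392) and with the dimmest 25% of genes removed (adjusted p = 0.0300), and it also passed when day 0 replicate 1 (adjusted p = 0.0205) or day 1 replicate 3 (adjusted p = 0.0471) was left out. Gins3 missed the threshold without day 0 replicate 2, day 0 replicate 3, day 1 replicate 1 or day 1 replicate 3, with adjusted p values between 0.0597 and 0.0723.

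Cdc45, which joins GINS in the active helicase, was at 1.20 ± 0.08, and Mcm10, which helps to activate it, at 1.08 ± 0.08. Clspn, the adaptor claspin that travels with the fork and relays the replication checkpoint, was at 0.75 ± 0.08, and a second, dimmer row of Clspn was at 0.94 ± 0.14. Mcm8, a relative of the MCM subunits that acts in recombination, was at 0.54 ± 0.09 on a dim row, at the 19.4 percentile of signal.

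All 5 measured genes of polymerases and primase rose, 1 by 2-fold or more, and their median was 0.80. Pole, the catalytic subunit of the leading-strand polymerase epsilon, had 7.37, 7.19 and 7.24 in day 1 cultures, against 5.56, 5.34 and 5.57 in day 0 rings. That change, 1.78 ± 0.09 (3.44-fold, adjusted p = 1.68e-06 by limma), lay within the range of the MCM subunits. The remaining polymerase genes moved less. Prim1, the catalytic subunit of primase, stood at 8.38, 8.48 and 8.30, against 7.63, 7.39 and 7.15 in day 0 rings, a change of 1.00 ± 0.12. Pola1 and Pola2, subunits of the primer-extending polymerase alpha, were at 0.80 ± 0.08 and 0.58 ± 0.11, and Pold1, the catalytic subunit of the lagging-strand polymerase delta, at 0.62 ± 0.09. The 95% interval of Pole (1.58 to 1.98) lay above those of the other 4, and that of Pola1 (0.61 to 0.98) overlapped those of Prim1, Pola2 and Pold1.

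Genes of the sliding clamp, its loader and lagging-strand joining all rose, 7 of 7, with a median of 0.95. Pcna, the clamp that holds polymerases on DNA, had 10.01, 10.17 and 10.11 in day 1 cultures, against 8.84, 8.85 and 8.78 in day 0 rings. Its change of 1.27 ± 0.06 (2.41-fold) was many times the spread of either group (SD 0.08 on day 1 and 0.04 on day 0, n = 3 each). Fen1, the nuclease that trims Okazaki fragments, was at 1.37 ± 0.09, and Lig1, the ligase that seals them, at 0.95 ± 0.06. Rpa2, which coats exposed DNA strands, was at 0.95 ± 0.07. Of the clamp loader, Rfc4 had 6.96, 6.81 and 6.95 in day 1 cultures, against 4.94, 5.76 and 5.33 in day 0 rings. The change of Rfc4 was 1.56 ± 0.18, with a day 0 SD of 0.41 (n = 3), and its loader partners Rfc5 and Rfc3 were at 0.78 ± 0.10 and 0.49 ± 0.08.

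Nucleotide supply rose in 5 of 5 genes, with a lower median of 0.59 and 1 gene at least 2-fold. That gene was Rrm2, the regulated small subunit of ribonucleotide reductase, with 9.16, 9.13 and 9.22 in day 1 cultures, against 7.78, 7.61 and 7.74 in day 0 rings. Rrm2 changed by 1.46 ± 0.07 (2.75-fold, adjusted p = 1.55e-06 by limma), and its second row by 1.52. Rrm1, the large subunit, had 4.39, 4.45 and 4.28, against 3.91, 4.17 and 4.15 in day 0 rings. The row of Rrm1 was dim, at the 16.1 percentile of signal, and log2 values of dim rows can understate a fold change. Its change was 0.29 ± 0.09 (adjusted p = 0.0260). Leaving out day 0 replicate 1, day 1 replicate 1 or day 1 replicate 2 ended the call of Rrm1 (adjusted p between 0.0650 and 0.0847), as did the intensity trend and robust prior with all arrays kept (adjusted p = 0.0535). Thymidylate synthase Tyms stood at 9.10, 9.20 and 9.16 in day 1 cultures, against 8.65, 8.59 and 8.47 in day 0 rings, a change of 0.59 ± 0.07. Tk1, which salvages thymidine, was at 0.66 ± 0.11 and Dut, which removes dUTP, at 0.51 ± 0.07.

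Genes that package, mark or repair the new DNA rose in 5 of 5 cases, 4 by 2-fold or more, and their median was 1.17. Uhrf1, which recruits the maintenance methyltransferase to copied DNA, had 8.56, 8.56 and 8.54 in day 1 cultures, against 6.64, 6.75 and 6.53 in day 0 rings. Its change was 1.91 ± 0.07 (3.77-fold), and that of Dnmt1, the methyltransferase itself, was 1.17 ± 0.07. Chaf1b, a subunit of the chromatin assembly factor, stood at 6.59, 6.38 and 6.68, against 5.77, 5.10 and 5.14 in day 0 rings, a change of 1.21 ± 0.18. Ung, which removes uracil from DNA, was at 1.16 ± 0.15, and Slbp, which binds the stem-loop of histone mRNA, at 0.44 ± 0.11.

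**Figure D2:**
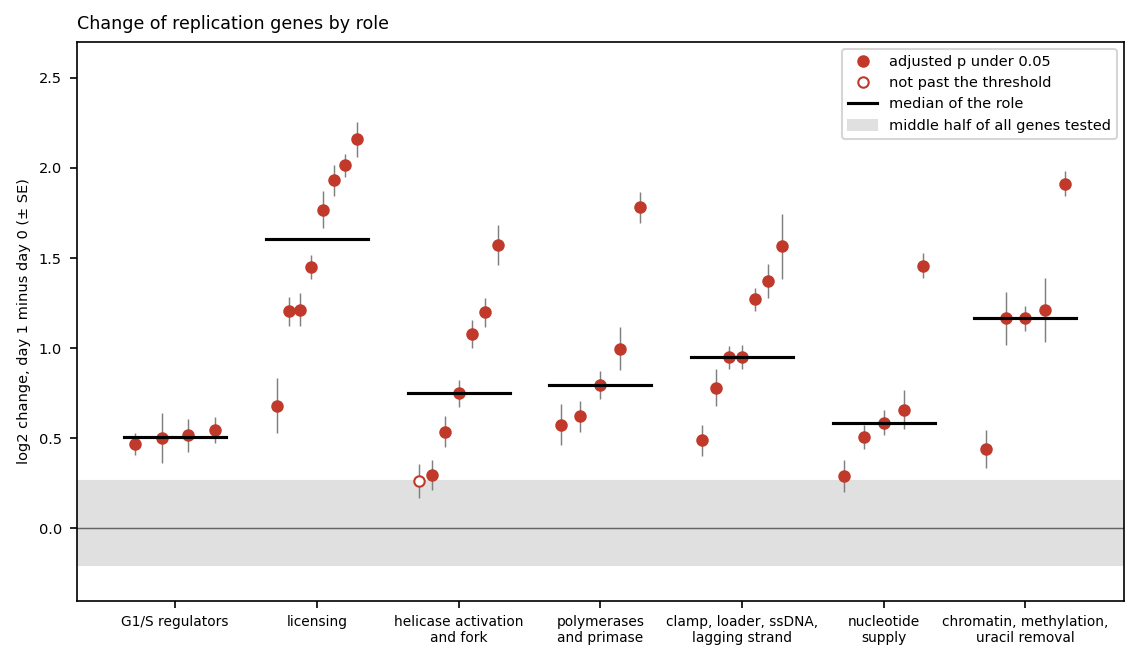
Log2 change (day 1 minus day 0, y axis) of the 41 measured genes by role, with standard errors; black lines are role medians and the grey band is the interquartile range of all genes tested. Licensing has the highest median (1.61), G1/S regulators the lowest (0.51), and the open circle is Gins2.

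Licensing, polymerase and nucleotide supply genes were then contrasted within each array, by taking each gene's value minus its day 0 mean and the median over each role. Licensing shifted by 1.73, 1.54 and 1.56 on the 3 day 1 arrays. Polymerases and primase shifted by 0.87, 0.76 and 0.76, and nucleotide supply by 0.54, 0.63 and 0.59. On every day 1 array licensing stood above both other roles. The difference of role medians was 0.81 for licensing minus polymerases and primase, and the within-array difference averaged 0.81 ± 0.04 (SD, n = 3) in day 1 cultures and -0.01 ± 0.09 (SD, n = 3) in day 0 rings. For licensing minus nucleotide supply it was 1.02, with within-array values of 1.19, 0.91 and 0.97 in day 1 cultures, against 0.02, 0.04 and -0.11 in day 0 rings. Polymerases and primase minus nucleotide supply gave 0.21, with 0.34, 0.13 and 0.16 in day 1 cultures, against 0.03, -0.04 and -0.02 in day 0 rings. The day 0 differences lie near 0 by construction, since each gene's day 0 mean was subtracted. They show only the spread among the rings and not that the roles had equal levels there. The same day 0 means enter all 3 day 1 values, so the day 1 SD leaves out their error. The role differences describe 8, 5 and 5 listed genes without a test, and Orc2, Orc3, Orc4 and Orc5 are not among them. Over all 41 members, the median change was 0.715 in the 20 of lower mean level and 0.998 in the 21 of higher mean level. The part of signal level in the differences between roles was not tested. The roles also overlap gene by gene, since Pole (1.78) and Rrm2 (1.46) were above Orc1, Cdt1 and Orc6.

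Subunits of the same complex differed in how far they rose. The subunits that are not among the 45 genes were named after their values were seen. In the origin recognition complex, Orc1 and Orc2 (0.85 ± 0.06) were highest, and Orc3 and Orc4 were at 0.16 and 0.17, neither past the threshold. In GINS, Gins4 (1.31 ± 0.14) stood with Gins1, apart from Gins2 and Gins3. In polymerase epsilon, Pole was at 1.78, and its accessory subunits Pole3 and Pole4 were at 0.00 ± 0.10 and 0.09 ± 0.07 (95% intervals -0.24 to 0.24 and -0.07 to 0.25). In polymerase alpha-primase, Prim1 was at 1.00, and Prim2, the large primase subunit, at 0.08 ± 0.06 (95% interval -0.07 to 0.22). In replication factor C, Rfc4 led and the large subunit Rfc1 was at 0.28 ± 0.07. The 4 measured subunits of the MCM helicase lay within 0.57 of each other, and those of polymerase delta, all past the threshold, within 0.39, between 0.25 and 0.64. The spread between subunits was 1.31 in GINS and 1.78 in polymerase epsilon. Orc4 passed with each array centred on its median (adjusted p = 0.0335) or day 1 replicate 1 left out (adjusted p = 0.0442), and Rfc1 (adjusted p = 0.0758) and Pold2 (adjusted p = 0.0868), another polymerase delta subunit, missed with quantile normalization.

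**Figure D3:**
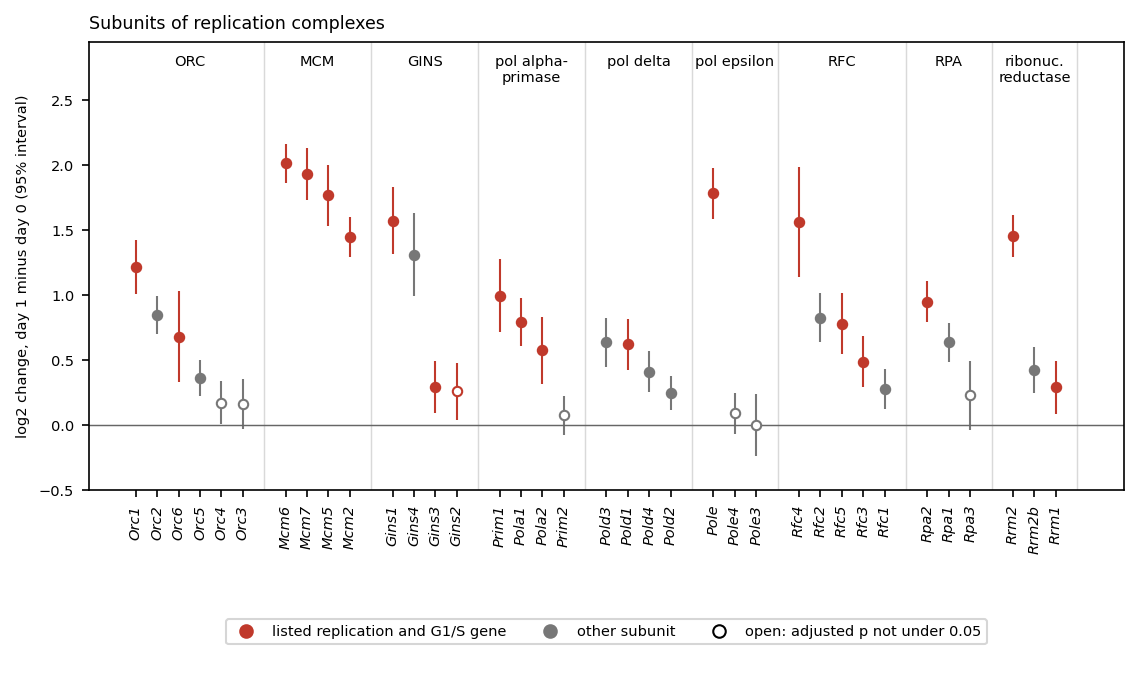
Log2 change (day 1 minus day 0, y axis) with 95% intervals for the measured subunits of 9 replication complexes; red marks the listed replication and G1/S genes, grey the other subunits, and open circles an adjusted p not under 0.05. Pole stands at 1.78 beside Pole4 at 0.09 and Pole3 at 0.00, while the 4 MCM subunits lie between 1.45 and 2.01.

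Other genes of replication and the cell cycle were followed through 5 further lists. For comparison with each list, 27.6% of all genes tested rose and 20.7% fell. Of 28 other fork and origin genes 21 rose and 0 fell (median 0.57), led by Gmnn (1.75 ± 0.12), which encodes geminin, the inhibitor of Cdt1, Gins4, the fork protein gene Wdhd1 (1.24 ± 0.10) and Timeless (1.22 ± 0.09). Of 24 other nucleotide synthesis genes 20 rose and 2 fell (median 0.60). The folate enzyme gene Shmt1 (1.97 ± 0.08), its mitochondrial relative Shmt2 (1.14 ± 0.07), the deaminase gene Dctd (1.12 ± 0.09) and the deoxycytidine kinase gene Dck (1.01 ± 0.07) changed most. Those that fell were the CTP synthase gene Ctps1 (-0.89 ± 0.07) and the mitochondrial deoxyguanosine kinase gene Dguok (-0.45 ± 0.08). Among 11 genes of replication stress and mismatch repair 10 rose (median 0.70), with the checkpoint kinase gene Chek1 at 1.36 ± 0.08, Brca1 at 1.24 ± 0.07, Fancd2 at 1.22 ± 0.09 and Rad54l at 1.10 ± 0.17.

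Upstream of these genes, 14 of 22 G1 cyclins, kinases, inhibitors and pocket proteins rose and 2 fell (median 0.35). Myc, a growth-induced transcription factor, had 7.98, 8.13 and 8.18 in day 1 cultures, against 5.80, 5.99 and 5.28 in day 0 rings, a change of 2.41 ± 0.17. Ccnd1, the G1 cyclin of Cdk4 and Cdk6, had 10.30, 10.24 and 10.30, against 8.41, 8.54 and 8.31 in day 0 rings (1.86 ± 0.07). The cyclin E genes, partners of Cdk2 at S phase entry, rose too, Ccne1 by 1.94 ± 0.21 and Ccne2 by 1.55 ± 0.07. Ccnd2 fell by 0.69 and the retinoblastoma gene Rb1 fell by 0.24. Cdk2 was at 0.67 ± 0.07 and the Cdk inhibitor gene Cdkn1a at 0.37 ± 0.09, while the inhibitor gene Cdkn1b was at 0.10 ± 0.07 (adjusted p = 0.292, 95% interval -0.07 to 0.27). The call of Rb1 ended when day 0 replicate 1 (adjusted p = 0.0535) or day 1 replicate 3 (adjusted p = 0.0551) was left out or arrays were centred on their medians (adjusted p = 0.0582), and that of Cdkn1a with quantile normalization (adjusted p = 0.0507).

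Genes of G2 and mitosis, which act after replication, had a lower median: 20 of 27 rose and 0 fell, 2 by 2-fold or more, and their median was 0.40. The checkpoint gene Mad2l1 (1.30 ± 0.06), the kinase gene Ttk (1.12 ± 0.14), the phosphatase gene Cdc25b (0.94 ± 0.08) and the cyclin gene Ccna2 (0.85 ± 0.08) led them. The mitotic cyclin gene Ccnb1 had 7.25, 7.34 and 7.08 in day 1 cultures, against 7.06, 6.84 and 6.86 in day 0 rings. That change of 0.30 ± 0.09 (adjusted p = 0.0263) did not pass with quantile normalization (adjusted p = 0.0613), nor when day 0 replicate 2, day 0 replicate 3, day 1 replicate 1 or day 1 replicate 2 was left out (adjusted p between 0.0714 and 0.0877). The mitotic kinase gene Cdk1 was at 0.62 ± 0.08 and the topoisomerase gene Top2a at 0.48 ± 0.06. The medians of 0.95 in the replication and G1/S genes and 0.40 in the G2 and mitosis genes were not tested against each other.

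**Figure D4:**
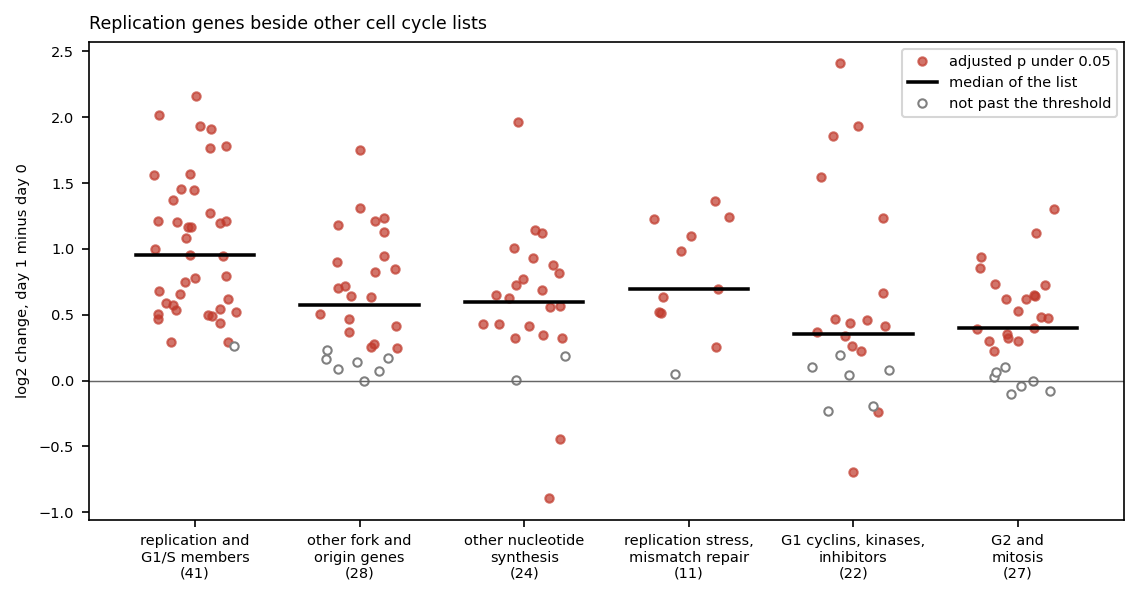
Log2 change (day 1 minus day 0, y axis) of each measured gene in the replication and G1/S list and in 5 further lists, with the number measured below each name; filled circles passed an adjusted p of 0.05 and black lines are medians. The median is 0.95 in the replication and G1/S genes and 0.40 in G2 and mitosis.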

How the data were processed

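Total RNA of 6 pooled samples was read on 6 arrays. The authors deposited 1 log2 value per transcript cluster and array, over 27342 rows; that these are log2 values was judged from their range, 1.32 to 14.16. The submitters' processing notes name limma, with background correction and normalization not given in the sources used here. No further scaling was applied. Rows with exactly 1 symbol numbered 15097; their names were brought up to date through the GRCr8 gene table (15067 by gene ID, 6 by accession, 24 as annotated), which left 14324 genes. The promoter sequences are RefSeq's.

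Day 1 and day 0 were set against each other in limma 3.58.1 under R 4.3.3 (lmFit, eBayes, neither block nor filter), two-sided, with Benjamini-Hochberg adjustment across 14324 genes. The procedure was first tested on simulated data, with independent normal noise and 200 of 14324 genes changed. It recovered 70.1% of log2 changes of 0.5, 94.0% of 1.0 and 98.5% of 2.0, with 1 false call among 176. In the data themselves 48.3% of genes passed, a setting that the simulation did not cover. The labels speak of biological replicates without stating if pools had animals in common, and a p-value here measures only how these pools vary. Precision is limited by the number of arrays.

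The members, the lists and the rule for named genes were chosen with earlier results of these data known. Every measured member could be named. From each other list the rule takes up to 4 genes of largest change past the threshold and the largest opposite change, and adds Ccnd1, Ccne1, Ccne2, Cdk2, Cdkn1a, Cdkn1b, Myc, Top2a, Ccnb1 and Cdk1; Mki67 was not analysed here. Alternatives were quantile normalization, median centring, leaving out the dimmest 25% of genes, other choices among a gene's rows (mean, most variable, all rows as features), eBayes with trend and robust prior, array weights, a replicate block, and leaving out each array.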

Additional observations from a re-analysis of the deposited data

How the results depend on the processing

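All 41 measured members kept a change above 0 under every alternative that held them (39 without the dimmest 25% of genes, which leaves out Mcm8 and Rrm1), and between 38 and 41 were called higher. Their median change of 0.95 was 1.00 with median centring, 0.89 with quantile normalization, 1.00 without the dimmest 25%, and 0.92 to 1.00 when each array was left out. All genes called lower numbered 2968, and 4483 with every row as a feature, where more features are tested. Same-numbered arrays of the groups correlated at 0.01 to 0.04 in their deviations from the group means, and differently numbered arrays at -0.05 to 0.04. With 3 arrays per group these values cannot settle if same-numbered pools had animals in common. With a replicate block 41 members were called higher, Gins2 being added (adjusted p = 0.0168 by limma), and 3815 genes were called higher over all. No measured member changed direction. Pole3, at 0.00 and not past the threshold, lay between -0.12 (without day 1 replicate 1) and 0.08 (without day 1 replicate 2). The calls of Gins2, Gins3 and Rrm1, whose changes were between 0.26 and 0.30, moved across the threshold between alternatives; the cause was not tested.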
